A study of Mus musculus with 6 samples.

Results

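The genes described here encode the proteins that give epithelial cells an apical and a basal side (apicobasal polarity) and a shared direction within the plane of the sheet (planar cell polarity). The 37 genes were listed by family (Par, Crumbs, Scribble, Mark kinase, Numb and planar polarity), with Ezr as the linker of membrane to actin at the apical surface. They are 37 of the 20145 named genes on the array, and the rule that lists them uses no expression value, although it was written with earlier results of these data known. Total RNA came from primary mammary epithelial cells, prepared by dissociating mammary glands of female mice aged 8 weeks on a mixed 129sv/C57Bl6 background. The groups were wild type (Plk2 +/+, 3 samples) and Plk2 null (Plk2 -/-, 3 samples). Plk2 is a polo-like kinase, a serine/threonine kinase with roles at the centrosome. The labels used here do not say how the null allele was made, or whether a sample came from 1 mouse or a pool, so the p-values measure the spread between these samples.

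Apicobasal polarity rests on mutually exclusive protein modules. The Par complex (Pard3, Pard6 and atypical protein kinase C, switched on by Cdc42) and the Crumbs complex mark the apical side. The Scribble complex marks the basolateral side and excludes, and is excluded by, the apical kinase. The kinase Lkb1 (Stk11) activates the Mark kinases, which keep Pard3 off the lateral membrane, and Numb is a cargo adaptor whose placement atypical protein kinase C controls. In planar polarity, Vangl and Prickle proteins gather at one edge of a cell, Frizzled and Dishevelled (Dvl) proteins at the opposite edge, and Celsr cadherins bridge them. In the mammary gland these modules are known for organising the ducts around a lumen and for orienting cell division.

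The promoters of Crb3 and Vangl2 are shown because each holds the E-box CAGGTG, read as CACCTG on the other strand, which Snail and Zeb repressors of polarity genes bind, and because these are an apical and a planar gene. Crb3 was chosen after the matches were seen, since only Crb3 and Pard3 had windows with 3 of them, and Vangl2 as the member with the lowest p-value. Sequences are from RefSeq on GRCm38.p6, cover the 250 bases before the start of transcription, and are printed 5′ to 3′ on the strand of the gene, with E-boxes in capitals. The Crb3 window is chr17:57061951-57062200 on the plus strand, and the Vangl2 window is chr1:172027296-172027545 on the minus strand.
Crb3: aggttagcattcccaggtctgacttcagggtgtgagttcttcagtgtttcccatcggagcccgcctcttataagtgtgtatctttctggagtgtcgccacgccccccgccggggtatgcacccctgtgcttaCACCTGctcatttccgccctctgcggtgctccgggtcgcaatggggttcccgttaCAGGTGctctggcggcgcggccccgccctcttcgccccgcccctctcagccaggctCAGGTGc
Vangl2: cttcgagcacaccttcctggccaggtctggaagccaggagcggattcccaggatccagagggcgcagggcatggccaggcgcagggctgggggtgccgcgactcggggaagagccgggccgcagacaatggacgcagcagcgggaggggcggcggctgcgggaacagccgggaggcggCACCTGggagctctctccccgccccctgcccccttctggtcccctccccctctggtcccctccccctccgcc
The Crb3 window holds 3 E-boxes, which begin 118, 63 and 7 bases before the start, and the Vangl2 window holds 1, which begins 72 bases before it. The promoter table matched 30 of the 37 genes, with 49 windows because some genes have several starts whose windows can overlap. An E-box was found in 13 of those 30 genes (43.3%) and in 19.4% of all 27025 genes in the table. Among windows, 15 of 49 (30.6%) held at least 1, against 17.2% of all windows. At least 3 occurred in 3 windows of these genes (6.12%; 2 overlapping windows of Crb3 and 1 of Pard3) and in 0.247% of all windows. The windows of the polarity genes also held more CG pairs, with a median of 17 against 6 over all windows. The matches describe letters only, and binding was not measured.

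The labels were checked first against Plk2. Its signal was 1169, 1160 and 1472 in the wild-type samples and 2.44, 1.928 and 1.875 in the null samples. On the null arrays the probe did not rise well above background, so the value is a bound, at least 149.8-fold lower. The limma adjusted p of 3.61e-06 belongs to the fitted log2 difference of -9.32, which uses those dim null signals, and not to the bound. The probe passed the filter through the 3 wild-type arrays alone. The bound sets the wild-type mean against the lowest signal called well above background on each null array. Whether the probe lies in the deleted part of the gene was not tested. The epithelial markers Epcam, Krt8 and Krt18 were well above background in both groups, with log2 differences of 0.09, -0.1 and 0.06. Of the 20 pan-epithelial markers, 5 had groups that did not overlap, against 31.5% of all 24609 array entries tested. Among the 5 were Ap1m2 at 0.64 and Cldn4 at -0.71, and none of the 20 was called.

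The share of probes called well above background was 50.2% to 52.2% in wild-type and 51.2% to 54.7% in null samples. Null sample 3 stood apart. Its score on principal component 2, which held 23.5% of the variance, was 74, against -26.5 to 2.88 for the others. Correlations between arrays were 0.975 to 0.989 within the null group and 0.987 to 0.99 within wild type. The genotypes occupied different rows of the slide, row 1 for wild type and row 2 for null, and the effects of row and of genotype cannot be told apart. Same-numbered samples of the genotypes shared a slide column. For genes given by sample below, the difference without null sample 3 is added where it moved by over 1.5 times. Where it grew in size, the differences without null sample 1 and without null sample 2 are given too.

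Levels are log2 signals relative to the 75th percentile of the same array, and a difference is the null mean minus the wild-type mean on that log2 scale. A gene was tested where 3 or more of the 6 arrays called a probe well above background, and the brightest such probe was used. The 24609 entries were 14417 named genes and 10192 single probes matched to no named gene, so shares of all entries cover both. Of the 37 polarity genes, 34 were tested, and 32 of them were so called on all 6. Pard3b, Llgl1 and Celsr3 were too dim. In bulk RNA, fewer cells of a type and less RNA per cell cannot be told apart.

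No polarity gene passed the test between Plk2 null and wild-type cells. At a Benjamini-Hochberg adjusted p under 0.05 in limma, 0 of 34 were called, against 139 of all 24609 array entries tested (0.565%; 0.228% higher and 0.337% lower in null cells). At an unadjusted p under 0.05 there were 4 (11.8%), against 23% of all entries. Vangl2 and Pard6g had the higher values in null cells and Numbl and Prickle2 the lower ones. By direction, 2 of 34 were higher, where 13.5% of all entries were, and 2 were lower, where 9.54% were. The lowest adjusted p among the 34 was 0.122, for Vangl2.

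The sizes of the differences were small. Their median was -0.05 over the 34 genes and 0.03 over all entries, and their median absolute size was 0.15 against 0.29. A difference of at least 0.5 was found for 3 genes (8.82%), against 26.3% of all entries. None of the 34 reached 1, which 7.58% of entries did. The median within-group SD was 0.22 for the polarity genes and 0.25 for all entries. The 95% interval of the difference lay within 2-fold either way for 30 of 34 genes (88.2%), against 65.6% of entries, and within 1.5-fold for 14 (41.2%), against 24%. For those 30 genes a difference beyond 2-fold lay outside the interval.

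**Figure D1:**
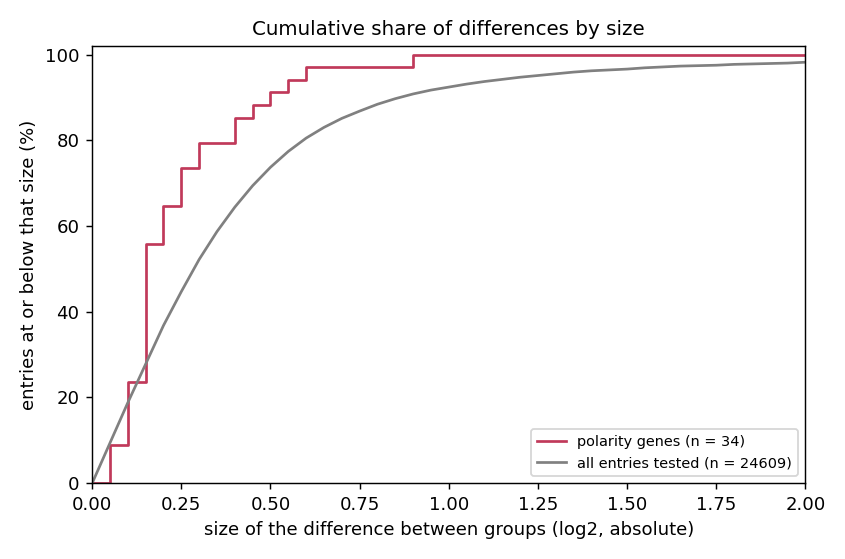
Cumulative share of entries (y axis, %) at or below a given absolute log2 difference between null and wild-type means (x axis), for the 34 polarity genes tested (red, in steps) and all 24609 entries (grey). The polarity curve reaches 100% below 1, while 7.58% of all entries lie at 1 or beyond.

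**Figure D2:**
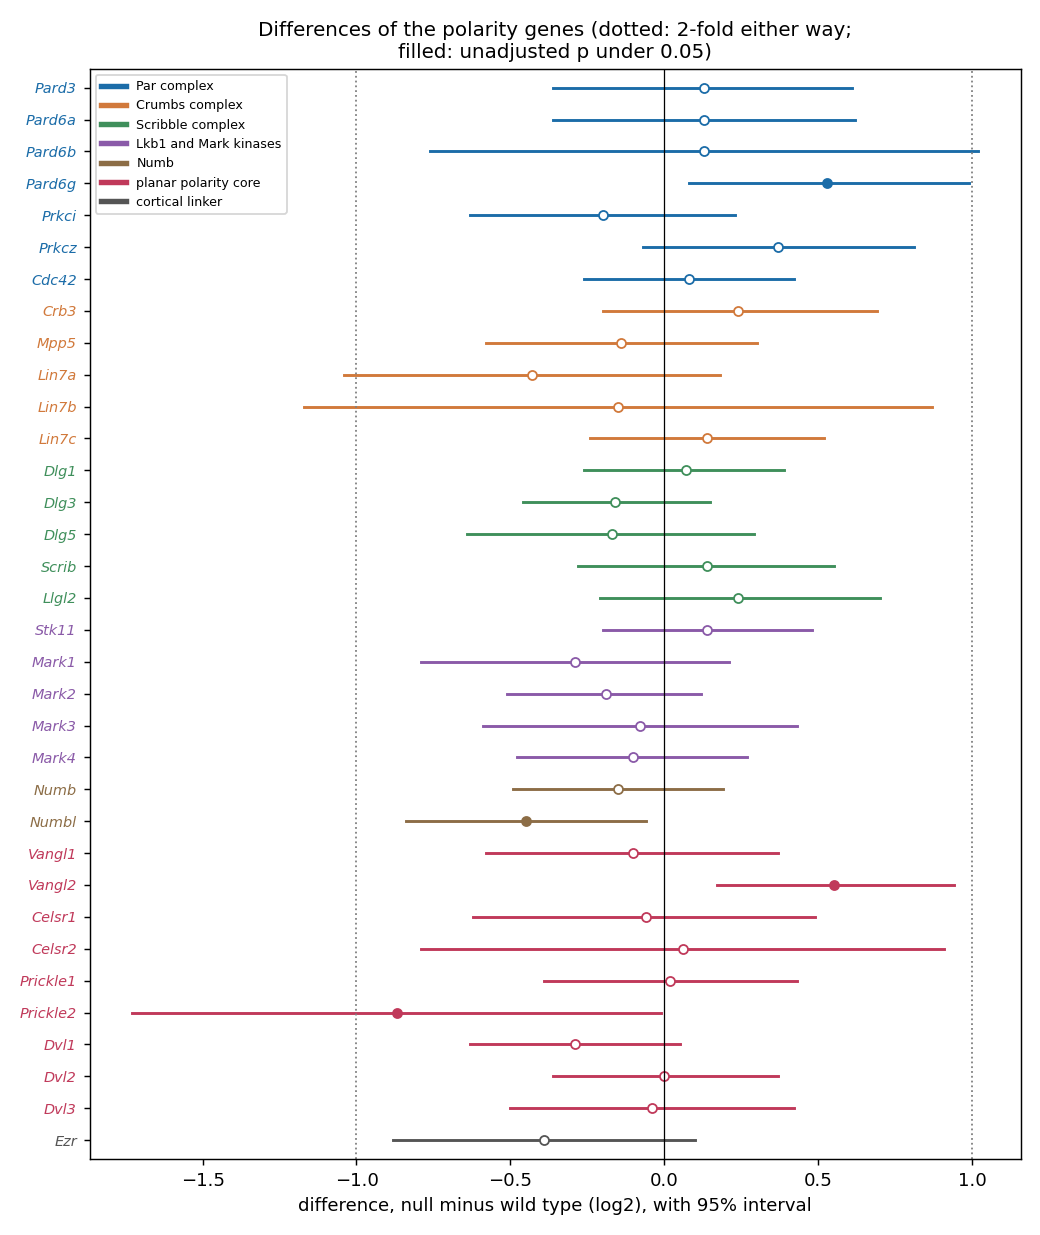
Difference of each tested polarity gene, null minus wild type (x axis, log2), with its 95% interval as a line and colours for the role groups; filled points have an unadjusted p under 0.05 and dotted lines mark 2-fold. Vangl2, Pard6g, Numbl and Prickle2 are filled, and the intervals of Pard6b, Lin7a, Lin7b and Prickle2 cross a dotted line.

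In the Par complex, 6 of 7 tested genes had the higher mean in null cells, with a median difference of 0.13 and a range of -0.2 to 0.53. With null sample 3 left out, 4 of 7 had the higher mean and the median was 0.27 (Pard6a at -0.04, Cdc42 at 0). The median was 0.05 to 0.42 over the other scalings, background correction and the deposited values. Pard3, the scaffold that recruits the complex to the tight junction region, had levels of 2, 2.29 and 2.19 in wild-type samples 1 to 3 and 2.49, 2.46 and 1.91 in null samples 1 to 3. Null samples 1 and 2 were above every wild-type sample and null sample 3 below all of them, so the groups overlapped. The difference was 0.13 (SE 0.2, adjusted p = 0.734), and without null sample 3 it was 0.32 (limma adjusted p = 0.256). It was 0.02 without null sample 1 and 0.04 without null sample 2.

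Pard6g, 1 of the 3 Pard6 adaptors that join Cdc42 to atypical protein kinase C, was at 1.84, 2.25 and 2.24 in wild-type samples and at 2.69, 2.83 and 2.41 in null samples (probe A_55_P2141786). All null samples were above all wild-type samples. The difference was 0.53 (SE 0.19, 95% interval 0.08 to 0.99), or 1.45-fold higher in null cells, with a limma adjusted p = 0.165 (0.027 before adjustment). Pard6a differed by 0.13 and Pard6b by 0.13, with overlapping groups. For Pard6b, the null samples were at -2.01, -2.04 and -3.26, which put null sample 3 below every wild-type sample. Without null sample 3 the Pard6b difference was 0.54 (limma adjusted p = 0.194). It was -0.09 without null sample 1 and -0.07 without null sample 2.

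The atypical protein kinases C, which phosphorylate Numb, Llgl and Pard3, had means on opposite sides of wild type. Prkci was at 4.89, 5.23 and 5.36 in wild-type samples and at 5.14, 4.85 and 4.89 in null samples. The groups overlapped, with a difference of -0.2 (SE 0.18, adjusted p = 0.534). Prkcz was at -1.12, -0.96 and -0.87 in wild-type samples and at -0.93, -0.51 and -0.41 in null samples. Null sample 1 fell among the wild-type values. The Prkcz difference was 0.37 (SE 0.18, adjusted p = 0.283), and its further probes gave 0.57 and 0.18. Cdc42, the GTPase that switches the complex on, differed by 0.08 (95% interval -0.26 to 0.42).

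The Crumbs complex had 2 genes with the higher and 3 with the lower mean in null cells, and a median difference of -0.14. Crb3, the apical membrane protein of mammary epithelium whose promoter is printed above, was at -0.79, -0.36 and -0.26 in wild-type samples and at -0.34, -0.26 and -0.08 in null samples. The groups overlapped. The difference was 0.24 (SE 0.19, 95% interval -0.2 to 0.69, adjusted p = 0.469), and the dimmer second Crb3 probe gave -0.08. Mpp5 (Pals1), which bridges Crumbs to its partners, differed by -0.14 (95% interval -0.58 to 0.3).

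The Lin7 proteins, small adaptors bound to Mpp5, showed the widest range of the complex. Lin7a was at -1.62, -1.41 and -1.45 in wild-type samples and at -1.93, -2.41 and -1.45 in null samples. Null samples 1 and 2 were below all wild-type samples and null sample 3 among them. The difference of -0.43 (SE 0.25, adjusted p = 0.351) became -0.67 without null sample 3 (limma adjusted p = 0.113). It was -0.43 without null sample 1 and -0.19 without null sample 2. Lin7b was well above background on 1 wild-type and 2 null arrays, and its difference of -0.15 had an interval of -1.17 to 0.87. It became -0.47 without null sample 3, 0.21 without null sample 1 and -0.19 without null sample 2. Lin7c differed by 0.14.

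In the Scribble complex, the tested genes differed by -0.17 to 0.24, with 3 higher and 2 lower in null cells. Scrib, the basolateral scaffold, was at 3.6, 3.61 and 3.88 in wild-type samples and at 3.94, 3.98 and 3.57 in null samples. Null samples 1 and 2 lay above all wild-type samples and null sample 3 below them, and the difference was 0.14 (SE 0.18, adjusted p = 0.67). Without null sample 3 it was 0.26 (limma adjusted p = 0.339), without null sample 1 it was 0.08 and without null sample 2 it was 0.06. Llgl2, the epithelial Lgl protein that atypical protein kinase C removes from the apical side, had the same order. It was at 1.39, 1.45 and 1.61 in wild-type samples and at 1.91, 1.89 and 1.38 in null samples, a difference of 0.24 (SE 0.19, adjusted p = 0.473). Without null sample 3 it was 0.42 (limma adjusted p = 0.151), without null sample 1 it was 0.16 and without null sample 2 it was 0.16.

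The Dlg scaffolds differed little. Dlg3 was at 3.17, 3.18 and 3.14 in wild-type samples and at 3.01, 2.95 and 3.04 in null samples. All null samples were below all wild-type samples, by a difference of -0.16 (SE 0.13, adjusted p = 0.493). Dlg1 differed by 0.07 and Dlg5 by -0.17 (-0.01 without null sample 3), both with overlapping groups. No array called Llgl1 well above background, with signals of 1.835 to 2.731, and no fold is given.

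Stk11, the upstream kinase Lkb1, was at 2, 1.95 and 1.92 in wild-type samples and at 2.15, 2.22 and 1.93 in null samples. Null samples 1 and 2 were above all wild-type samples and null sample 3 among them. The difference was 0.14 (SE 0.14, adjusted p = 0.589), or 0.22 without null sample 3. It was 0.11 without null sample 1 and 0.08 without null sample 2. All 4 Mark kinases, the lateral kinases that Lkb1 activates, had the lower mean in null cells, by -0.29 for Mark1, -0.19 for Mark2, -0.08 for Mark3 and -0.1 for Mark4. Mark2 was at 0.4, 0.46 and 0.47 in wild-type samples and at 0.28, 0.32 and 0.15 in null samples, with no overlap and an adjusted p of 0.419 in limma. Leaving out null sample 3, Mark1 differed by -0.11, Mark2 by -0.14, Mark3 by 0.12 and Mark4 by -0.04. Scaled to the spike-in controls, which moved the median of all entries from 0.03 to 0.32, all 4 had the higher mean in null cells (0.01 to 0.21).

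Numb and Numbl, related adaptors that inhibit Notch, both had the lower mean in null cells. Numbl was at 0.29, 0.38 and 0.31 in wild-type samples and at -0.14, -0.34 and 0.11 in null samples (probe A_66_P128909). All null samples were below all wild-type samples. The difference was -0.45 (SE 0.16, 95% interval -0.84 to -0.06), or 1.37-fold lower in null cells, with a limma adjusted p = 0.17 (0.0286 before adjustment). Numb was at -0.32, -0.12 and -0.35 in wild-type samples and at -0.44, -0.32 and -0.48 in null samples. These groups overlapped at the edge, with a difference of -0.15 (SE 0.14, adjusted p = 0.561).

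Among the core planar polarity genes, 3 of 9 tested had the higher and 5 the lower mean in null cells, and Dvl2 differed by 0 (95% interval -0.36 to 0.37). Vangl2, a membrane protein of the Vangl and Prickle side, was at -1.58, -1.78 and -1.66 in wild-type samples and at -1.16, -0.9 and -1.3 in null samples (probe A_55_P2117764). All null samples were above all wild-type samples. The difference was 0.55 (SE 0.16, 95% interval 0.17 to 0.94), or 1.47-fold higher in null cells, with a limma adjusted p = 0.122 (0.0118 before adjustment). A second Vangl2 probe gave 0.55 as well, from -1.8, -1.62 and -1.88 in wild-type samples and -0.69, -1.37 and -1.61 in null samples. On that probe null sample 3 lay just above the highest wild-type sample. Its paralog Vangl1 differed by -0.1 on the brighter probe (0.06 without null sample 3) and by 0.36 on the dimmer.

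The Celsr cadherins, which hold the complexes of neighbouring cells together, had Celsr1 at a difference of -0.06 and Celsr2 at 0.06. Celsr2 was at 0.38, 0.96 and 1.09 in wild-type samples and at 1.31, 1.17 and 0.13 in null samples, with null sample 3 the lowest of all 6. Without that sample the Celsr2 difference was 0.43 (limma adjusted p = 0.326). It was -0.16 without null sample 1 and -0.09 without null sample 2. Celsr3 was not tested in the main fit, being well above background on 2 null arrays and on no wild-type array. Its signals were 8.682, 8.969 and 7.56 in wild-type samples and 14.19, 16.24 and 9.052 in null samples. Because not every null array was well above background either, no fold is given. With no filter on dim probes, Celsr3 was among 4 genes at an unadjusted limma p under 0.05 (10.8%, against 13.6% of all entries). None was called in that setting, and the authors' p for Celsr3 was 0.0325. Pard3b, the paralog of Pard3, was well above background on 1 wild-type array and on no null array. Its signals were 8.975, 14.66 and 7.081 in wild-type samples and 7.065, 8.43 and 5.383 in null samples, and no fold is given.

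Prickle2, the cytoplasmic partner of Vangl, had the largest difference of the 34 with all samples, though not without null sample 3. It was at -3.83, -3.88 and -3.85 in wild-type samples and at -4.55, -4.08 and -5.55 in null samples (probe A_55_P2147666). All null samples were lower, and null sample 3, with a signal of 5.132, was not well above background. The difference was -0.87 (SE 0.36, 95% interval -1.73 to -0.01), or 1.83-fold lower in null cells, with a limma adjusted p = 0.212 (0.0474 before adjustment). Without null sample 3 it was -0.46 (limma adjusted p = 0.193), smaller in size than that of Lin7a, Pard6g, Vangl2, Numbl, Pard6b, Ezr or Lin7b. It was -0.16 with normexp background correction and -0.12 with the deposited values. Prickle1 differed by 0.02.

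The Dvl proteins relay Frizzled signals in planar and canonical Wnt signalling. Dvl1 was at 4.02, 4.24 and 3.99 in wild-type samples and at 3.86, 3.76 and 3.74 in null samples. All null samples were below all wild-type samples, by a difference of -0.29 (SE 0.14, adjusted p = 0.271). Dvl3 differed by -0.04. Ezr, the ezrin protein of the apical cortex, was at 4.97, 4.59 and 5.07 in wild-type samples and at 4.36, 4.32 and 4.78 in null samples. Null sample 3 fell among the wild-type samples, and the difference was -0.39 (SE 0.2, adjusted p = 0.305).

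Groups that did not overlap were found for 7 of the 34 genes (20.6%), against 31.5% of all entries. Pard6g and Vangl2 had all null samples above wild type, as 19.6% of entries did. Dlg3, Mark2, Numbl, Prickle2 and Dvl1 had all null samples below, as 11.9% of entries did.

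**Figure D3:**
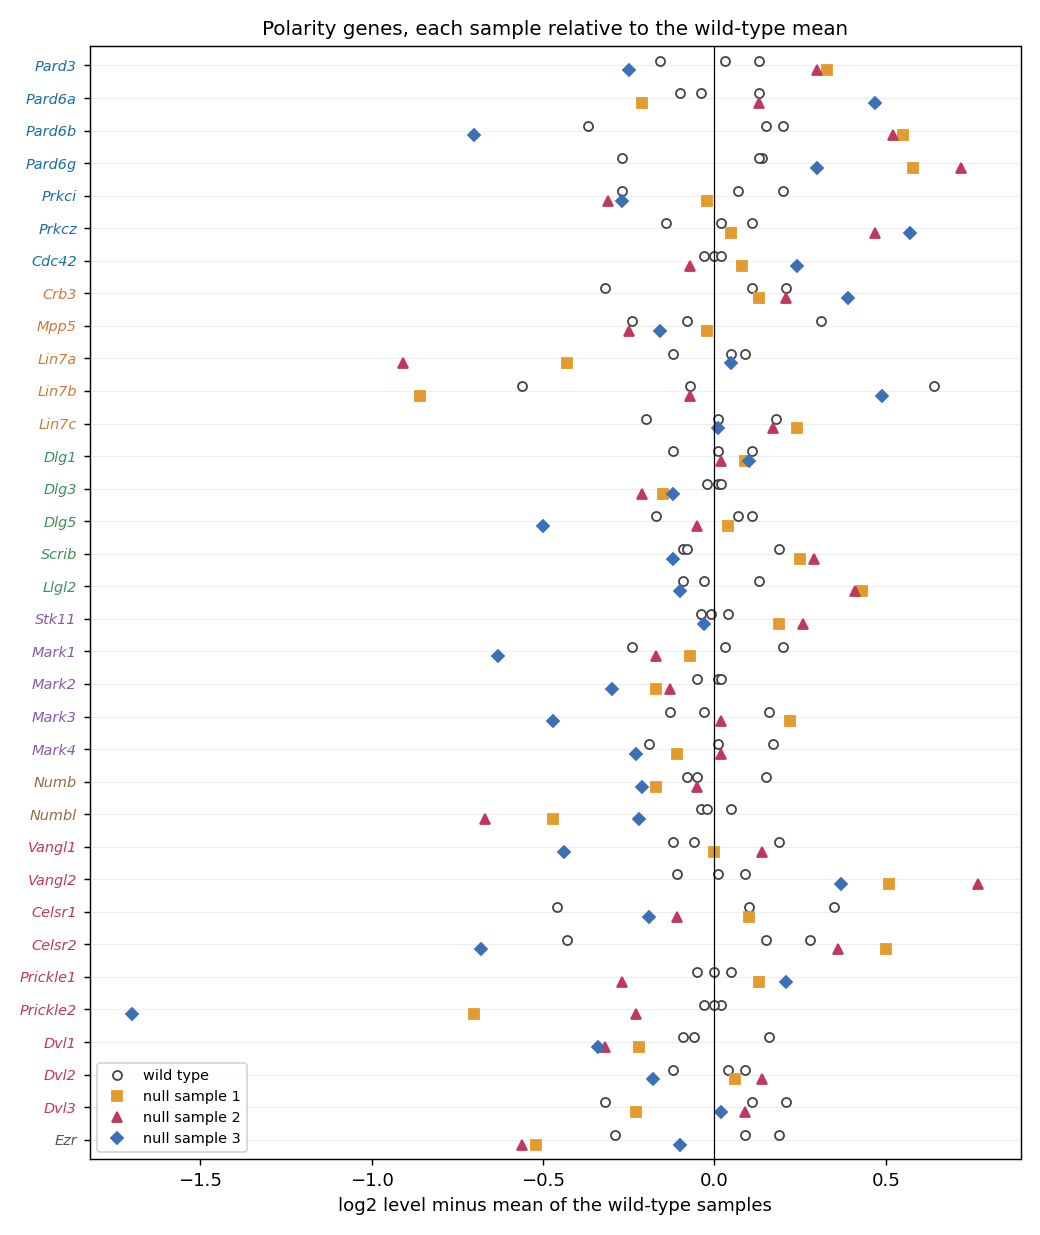
Level of each tested polarity gene in every sample minus its wild-type mean (x axis, log2); open circles are wild-type samples, squares, triangles and diamonds are null samples 1, 2 and 3, and gene names are coloured by role group. Null sample 3 of Prickle2 is the farthest point to the left, and all 3 null samples lie right of the wild-type samples for Pard6g and Vangl2.

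Null sample 3 differed from the other null samples across the polarity genes. It was below both of them for 20 of 34 genes (58.8%), against 37.1% of all entries, and above both for 11 (32.4%), against 40.2%. It lay on the other side of the wild-type mean from both for 10 genes (29.4%), against 20.8%. The median level of the polarity genes relative to their wild-type means was -0.1, 0.04 and 0.03 in the wild-type samples and 0.04, 0.02 and -0.14 in the null samples. Null sample 3 and wild-type sample 1 were thus the lowest.

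Without null sample 3, 8 polarity genes had an unadjusted p under 0.05 and none an adjusted one. Those were Pard6b, Pard6g, Lin7a, Llgl2, Numbl, Vangl2, Prickle2 and Ezr. The share of all entries at that p was then 25.2%, and 239 entries were called higher and 465 lower. The Vangl2 difference was 0.64 (limma adjusted p = 0.0852), that of Numbl -0.57 (0.0898) and that of Ezr -0.54 (0.161). Leaving out wild-type sample 1 left 1 gene, Vangl2, at that p, with 16.4% of all entries. Leaving out wild-type sample 2, wild-type sample 3, null sample 1 or null sample 2 left 2 genes each, with 14.6% to 21.8% of entries.

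Over the 17 alternative settings, no polarity gene was called in any. Vangl2 had an unadjusted p under 0.05 in 17 of 17, with differences of 0.33 to 0.84 and adjusted p from 0.0561 to 0.339. Pard6g did so in 13 of 17 (0.4 to 0.83; limma adjusted p 0.0878 to 0.369) and Numbl in 9 of 17 (-0.57 to -0.16; 0.0697 to 0.669). Prickle2 did so in 6 of the 16 settings that measured it (-1.19 to -0.12; limma adjusted p 0.192 to 0.471). Over all 17 alternatives, the sign was the same throughout for 13 of the 34 genes, and 21 changed it in at least 1. Spike-in scaling moved the median of all entries from 0.03 to 0.32. Over the other 16 alternatives, 20 genes kept their sign throughout and 14 changed it in at least 1.

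The authors' deposited table holds 49 rows for probes of these genes, and none had an authors' p under 0.01. By the authors' thresholds in that deposited table (p under 0.01 and 1.4-fold), 921 of its 62976 rows passed (1.46%). For Vangl2 the authors' deposited table gives a fold of 1.3 and p of 0.0186 for the probe used here, and 1.35 and 0.0801 for the second.

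Paralogs were compared within samples, by testing whether the gap between a pair of genes differed between genotypes. Over 23 pairs in 10 families, the gap separated the groups for 3 pairs, which is the most an exact 2-sided permutation test of 3 against 3 can show (p = 0.1). Those were Vangl1 and Vangl2 (difference of the differences -0.66), Dlg1 and Dlg3 (0.23) and Mark1 and Mark3 (-0.21). Of all single entries, 31.5% had groups that did not overlap, and the share over pairs of other genes was not computed. With the dimmer Vangl1 probe the Vangl gap was -0.19, or -0.18 against the second Vangl2 probe, where the groups overlapped. The lowest Benjamini-Hochberg adjusted exact p was 0.575. Because the exact p cannot fall below 0.1 with 3 samples per group, no pair could have passed the threshold. The test therefore cannot decide whether the gap of any pair differed between genotypes. Prkci and Prkcz differed by -0.57 in the same measure (exact p = 0.2).

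Several kept probes were available for 9 of the genes, which gave 12 further probes. Crb3, Pard3 and Vangl1 had probes of both signs. For Pard3, 3 of 4 probes gave 0.13, 0.05 and 0.03. The fourth gave -0.92, from -1.9, -0.1 and 0.43 in wild-type samples and -1.36, -1.21 and -1.78 in null samples, with an SD of 1.22 among the wild-type samples. That probe varied more within wild type than the genotypes differed.

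Genes that work with the polarity modules were read from further lists. Of 51 measured other apicobasal genes, 1 passed the test. Arhgap31, a GTPase-activating protein that switches off Cdc42 and Rac1, fell by 1.1 on the log2 scale (SE 0.14, limma adjusted p = 0.0418). It was at 2.09, 1.89 and 1.84 in wild-type samples and at 0.94, 0.8 and 0.78 in null samples, with no overlap. Over the 17 alternatives its difference was -1.15 to -0.81 and its adjusted p 0.0102 to 0.152, under 0.05 in 9. Leaving out any wild-type sample, null sample 1 or null sample 2 raised that p to between 0.0982 and 0.152. With all samples, the limma adjusted p was 0.098 with spike-in scaling, 0.107 with no filter on dim probes and 0.121 with the replicate block.

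The other apicobasal genes had a median difference of -0.01, and 6 were higher and 3 lower at an unadjusted p under 0.05 (17.6%, against 23% of all entries). Sapcd2, a regulator of spindle orientation, was at -0.42, -1.14 and -1.28 in wild-type samples and at 1.2, 3.03 and 1.28 in null samples (difference 2.79, SE 0.52, adjusted p = 0.0661). Lrrc1, a Scribble relative, was at 0.55, 0.87 and 0.88 in wild-type samples and at 1.47, 1.43 and 1.6 in null samples (difference 0.73, SE 0.16, adjusted p = 0.08). Both had non-overlapping groups and missed the threshold.

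Of 36 measured other planar polarity genes, 0 passed, with a median of -0.07. At an unadjusted p under 0.05 there were 6 higher and 7 lower (36.1%, against 23% of all entries). The atypical cadherin Fat2 was at -1.74, -1.5 and -0.76 in wild-type samples and at 0.19, 0.68 and -0.55 in null samples (difference 1.44, limma adjusted p = 0.104). Wdpcp, a planar polarity effector of the cilium, differed by 0.48 (SE 0.13) and Sfrp2, a secreted Wnt antagonist, by -0.63 (SE 0.18). Neither passed, with adjusted p of 0.111 and 0.116.

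Of 17 measured ERM (ezrin, radixin, moesin) proteins and partners, the median difference was -0.18 and the gene called was Plk2 itself, which was on that list. Stk10, a kinase that activates ERM proteins, differed by -0.58 (SE 0.14, adjusted p = 0.0937), and the ERM-bound receptor Cd44 by -0.61 (SE 0.17, adjusted p = 0.111). At an unadjusted p under 0.05 there were 6 lower, with Plk2 among them, and 0 higher, against 9.54% and 13.5% of all entries.

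All 7 transcription factors of the Snail, Zeb and Twist families, repressors of epithelial genes, were measured. Their median difference was -0.36, and 0 were called, with 3 lower and 0 higher at an unadjusted p under 0.05, against 9.54% and 13.5% of all entries. Zeb1 was at 2.39, 2.12 and 1.99 in wild-type samples and at 1.41, 1.1 and 1.75 in null samples (difference -0.75, SE 0.21, limma adjusted p = 0.118). Twist2 differed by -0.68 and Twist1 by -0.59 (adjusted p = 0.107 and 0.163). Snai2 (Slug) had the largest difference of the 7 and the opposite sign, at 0.81 (SE 0.34, limma adjusted p = 0.222). These factors are also expressed by stromal cells.

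Some marker lists of other cell types lay apart between the genotypes. Of 19 measured lymphocyte markers, 18 were lower at an unadjusted p under 0.05, with sample medians from the wild-type mean of -0.34 to 0.48 in wild-type and -3.2 to -1.35 in null samples. Fibroblast markers had a median of -0.49 (8 of 13 lower at that p; -0.15 to 0.09 against -0.75 to -0.3). Cycling-cell markers had a median of 1.95 (13 of 13 higher at that p; -0.26 to 0.26 against 1.23 to 3.08). The 20 pan-epithelial markers had a median of 0.1 (3 higher and 1 lower at that p). Basal markers had a median of 0.65 (3 of 9 higher) and hormone-sensing luminal markers of -0.77 (5 of 9 lower). Luminal progenitor and alveolar markers had a median of 0.33 (of 6 measured, 2 higher and 2 lower) and neuron markers of -0.3 (2 of 6 lower). Schwann cell markers had a median of -0.65 (4 of 10 lower and 1 higher at an unadjusted p under 0.05) and macrophage markers of -0.49 (2 of 13 in each direction). Endothelial markers had a median of -0.41 (1 of 12 lower) and adipocyte markers of 0.08 (0 of 9). Of all entries, 9.54% were lower and 13.5% higher at that p. At the adjusted threshold 1 gene passed in each of the cycling, lymphocyte and hormone-sensing lists. The part of these cell types in the values of Arhgap31, Sapcd2, Fat2, the Zeb and Twist factors, Cd44 and the polarity genes was not tested.

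**Figure D4:**
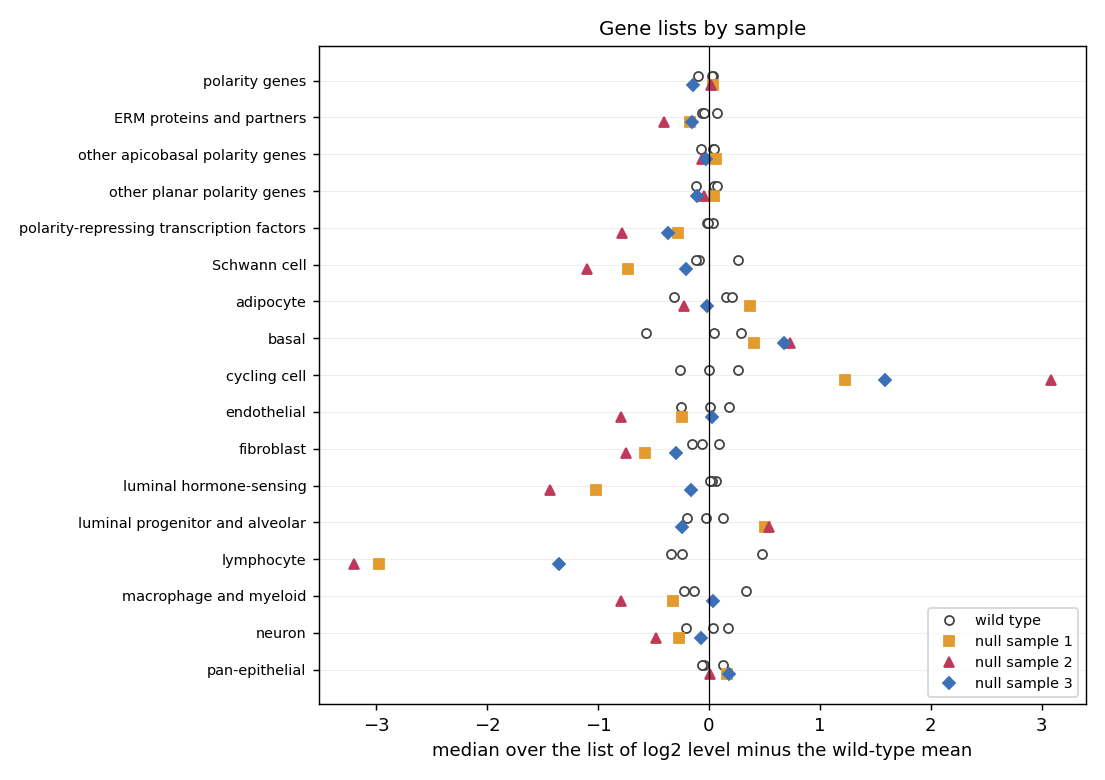
Median, over the genes of each list, of the log2 level minus the wild-type mean (x axis) for every sample; open circles are wild-type samples and squares, triangles and diamonds are null samples 1, 2 and 3. The polarity genes stay within -0.14 to 0.04, while the lymphocyte list reaches -3.2 and the cycling list 3.08 in null sample 2.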

How the data were processed

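RNA of 3 wild-type and 3 Plk2 null samples was hybridised singly to 1-colour Agilent arrays (design 028005). Intensity values were deposited as scanner output of Feature Extraction 11.0.1.1 (protocol GE1_1100_Jul11; probe annotation on mm9), per the file headers. The authors' deposited table also gives normalized signal, an unadjusted p-value, a linear ratio of wild type to null and a fold score with a sign, per spot; the sources used here do not give how they were made. The processed intensity, background-corrected per the file headers, was log2-transformed and centred on each array's 75th percentile. Control and outlier spots were left out (1119 outlier spots), and spots of a probe were averaged. A probe was kept where 3 or more of 6 arrays called it well above background, with the brightest per gene (names from RefSeq). The table of 24609 entries was fitted with limma 3.58.1 in R 4.3.3 (lmFit, eBayes); p-values were adjusted by Benjamini-Hochberg and called under 0.05. The fit was also run on simulated data with independent noise and added shifts. The share of shifts recovered is not given here, so how often a true difference would be called is not stated. Precision is limited by the 3 arrays per group. Members and lists were chosen with earlier results of these data known. All 37 members are reported, with every sample's value for those at an unadjusted p under 0.05, without overlap, or leading a role group; each further list gives its 3 lowest p-values, and other genes were named after their values were seen. Same-numbered samples, which shared a slide column, did not deviate together (correlations -0.12, 0.04 and -0.02), so no block was used. Alternatives covered background correction, scaling, filtering, probe choice, moderation, array weights, the replicate block and leaving out each sample.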

Additional observations from a re-analysis of the deposited data

Results flagged for a closer look

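Celsr3, a planar polarity cadherin that was too dim for the main fit, had a signal well above background in 2 of 3 null samples and in no wild-type sample. Its signals were dim on all arrays and not every null array was well above background, so no fold is given.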

How the results depend on the processing

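No polarity gene passed the adjusted threshold under any of the 17 alternatives. The number at an unadjusted p under 0.05 was 4; it was 2 with a replicate block, and 1 to 8 when single samples were left out. The median difference of the polarity genes was -0.052, and 0.24 with spike-in scaling, which moved the median of all entries from 0.03 to 0.32. The number of all entries called (139; 56 higher, 83 lower) depended on the setting. It was 1239 with normexp background correction (722 higher, 517 lower), 346 with median centring (179 and 167) and 770 with the deposited values (387 and 383). Spike-in scaling gave 399, of which 273 were higher and 126 lower. It was 31 with no filter on dim probes, 380 with probes well above background on all 6 arrays, 847 with trend and robust moderation and 1475 with array weights. With the replicate block it was 8. That block is also a block by slide column, since same-numbered samples shared a column, and the labels do not otherwise pair the samples. Leaving out single samples gave 7 to 704. For these counts the cause was not tested. Dim signals limit Pard3b, Llgl1, Celsr3, Lin7b and Prickle2.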
